A study of Mus musculus with 6 samples.

Results

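The 9 genes described here, Cat, Cstf3, Tcp11l1, Qser1, Knl1, Snap23, Ttpal, Serinc3 and Wfdc2, lie on mouse chromosome 2, the chromosome of Tasp1. They were picked because their array signals separated 3 Tasp1 KO heads from 3 WT heads. They were read on 10 probe sets, each annotated to 1 gene symbol, out of 21789 such probe sets. All 9 passed the filter on dim probe sets and are among the 11802 genes tested, of which 939 lie on chromosome 2. Because the difference between KO and WT heads chose these genes, it is given below as a description and carries no test.

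RNA was taken from the forebrain and midbrain part of 6 mouse embryo heads at E10.5 and read on 1 Affymetrix array per head. WT and KO (Tasp1-/-) embryos came from crosses between Tasp1+/- parents, and the labels name C57Bl6 as the background strain of all 6. All groups have 3 heads, each labelled a separate biological replicate, with no litter stated. The labels give neither the deleted part of Tasp1, nor the strain of the stem cells in which the allele was made, nor the number of backcrosses.

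Tasp1 encodes Taspase1, a protease that cleaves regulators of transcription, among them the MLL histone methyltransferases and the precursor of TFIIA. Genes that lie near each other on a chromosome tend to be inherited together. When a mutation made in cells of one strain is bred into another, DNA of the first strain on both sides of the mutated gene can be carried along, and variants in such DNA can change the level of a transcript or how well its RNA binds the probes of an array. No genotype of chromosome 2 was among the data analysed here. The KO label and any DNA that travels with the mutated Tasp1 allele therefore cannot be told apart in these 6 heads.

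Values are deposited log2 signals, and a difference is the KO mean minus the WT mean in log2 units. The arrays were alike, with Pearson correlations between arrays, across genes, from 0.989 to 0.996. Xist read 12.3 in WT 2 and 4.90 to 5.24 in the remaining 5 heads, so embryo sex is not balanced between the groups, and results are also given without WT 2 where that matters. Of the markers of forebrain and midbrain neuroepithelium, 13 of 14 were tested and had mean log2 signals of 10.39 to 10.58 in WT and 10.41 to 10.44 in KO heads; 5 had higher and 8 lower means in KO heads, 3 of the latter with an unadjusted limma p under 0.05. Of the markers of early neurons, 8 of 8 were tested and 8 had lower means in KO heads, by a median of −0.15, and 2 had such a p; their mean log2 signals ran from 9.57 to 9.84 in WT and from 9.32 to 9.73 in KO heads. None of these markers passed adjustment over all genes. The part of such differences in the results below was not tested. In whole tissue of this kind, fewer cells of a type and less RNA per cell cannot be told apart.

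The Tasp1 signal itself was not lower in the KO heads. It read 8.10, 8.45 and 8.49 in WT and 8.63, 8.63 and 8.50 in KO heads, a difference of 0.24 with the groups parted by only 0.01. This did not pass the test across all genes (limma, 95% confidence interval 0.02 to 0.47, adjusted p = 0.675). A two-sided exact permutation test on this gene gave p = 0.1, a value that no comparison of 3 heads with 3 can go below. The difference came to 0.12 with WT 1 left out. Whether the probes fall inside the deletion is not stated in the labels, and this signal is no check of the genotypes.

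In the order of gene starts in RefSeq, counted over tested genes only, Tasp1 is at position 646 of 939. The 9 genes fall into 3 stretches, with Tasp1 between the second and the third. Cat, at position 441, opens the first stretch. After 9 other tested genes come Cstf3, Tcp11l1 and Qser1, immediate neighbours of each other at 451, 452 and 453. Knl1 at 500 and Snap23 at 523 bound the second stretch. Ttpal and Serinc3, immediate neighbours at 802 and 803, and Wfdc2 at 815 make up the third. The gene nearest to Tasp1, Snap23, is 123 tested genes away from it and the farthest, Cat, 205.

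Of the 9 genes, 8 matched RefSeq's promoter table (build GRCm38.p6), and Ttpal did not. The 250 bases before the annotated start are shown for Cstf3 and Knl1, which were higher in KO heads, and for Cat and Wfdc2, which were lower, so that sequences from both directions can be compared; no other annotated gene lies in these windows. They span chr2:104590234-104590483 (+ strand), chr2:119046869-119047118 (+ strand), chr2:103485154-103485403 (- strand) and chr2:164562465-164562714 (+ strand), all on chromosome 2, and capitals mark a GC box (GGGCGG), the box named CCAAT for its letters, the TATA box (TATAAA), an ETS motif (CCGGAAGT) or a cyclic AMP response element (TGACGTCA), each searched on both strands, with 0 hits overlapping a hit of another motif.
Cstf3: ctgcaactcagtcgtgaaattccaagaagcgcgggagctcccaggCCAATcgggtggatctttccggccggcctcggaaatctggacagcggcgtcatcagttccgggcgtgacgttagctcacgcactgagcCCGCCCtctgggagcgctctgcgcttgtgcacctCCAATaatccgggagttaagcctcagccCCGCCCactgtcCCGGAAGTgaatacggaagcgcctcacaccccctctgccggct
Knl1: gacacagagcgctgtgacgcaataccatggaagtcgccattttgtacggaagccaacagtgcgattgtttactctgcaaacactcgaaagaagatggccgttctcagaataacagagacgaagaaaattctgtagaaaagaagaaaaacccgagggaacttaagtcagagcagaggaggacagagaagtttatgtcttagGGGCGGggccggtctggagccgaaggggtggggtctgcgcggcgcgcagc
Cat: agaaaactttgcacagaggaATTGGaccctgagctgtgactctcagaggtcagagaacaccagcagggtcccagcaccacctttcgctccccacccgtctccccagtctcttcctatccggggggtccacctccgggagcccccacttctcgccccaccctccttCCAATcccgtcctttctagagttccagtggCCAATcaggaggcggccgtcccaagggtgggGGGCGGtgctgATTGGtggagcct
Wfdc2: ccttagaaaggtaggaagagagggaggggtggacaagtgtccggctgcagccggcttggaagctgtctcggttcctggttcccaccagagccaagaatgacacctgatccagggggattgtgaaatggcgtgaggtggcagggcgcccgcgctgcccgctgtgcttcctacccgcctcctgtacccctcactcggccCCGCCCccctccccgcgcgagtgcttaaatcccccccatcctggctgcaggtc

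The GC and CCAAT boxes did not sort by direction. A GC box stood in 7 of the 8 matched windows, of genes that were higher and of genes that were lower, where 32.9% of all 27025 RefSeq promoters held one. A CCAAT box stood in 4 of 8 (34.5% of all promoters), among them Cat with 4 copies and Cstf3 with 2. The ETS motif stood only in the window of Cstf3 (1 of 8, against 2.93% of all), and the TATA box (13.0% of all) and the cyclic AMP element (1.62%) in 0 of 8. The windows held 16 to 42 CpG dinucleotides in the genes that were higher and 9 to 15 in those that were lower. The median over all promoters was 6. This split was seen in only 8 windows and was not tested. The 8 genes passed the filter on dim probe sets, while the 27025 promoters were not limited to genes that did. The shares are thus of unlike sets, and an excess particular to these genes cannot be read from them. These matches describe letters in a window and say nothing of a factor's binding.

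Of the 9 genes, 5 were higher and 4 lower in the KO heads, and by selection every KO head lay beyond every WT head in all 9. Among all genes tested, the groups did not overlap for 12.3%, with 4.52% higher and 7.81% lower in KO heads. As the same contrast chose the 9 genes, nothing is read from their count against that share.

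In the first stretch, Cat, the gene of the peroxisomal enzyme catalase that breaks down hydrogen peroxide, was lower in KO heads. Its signal was 11.79, 11.78 and 11.77 in WT heads and 11.67, 11.51 and 11.48 in KO heads. The WT heads hardly differed, and KO 1 lay nearest to them. The means were 11.55 ± 0.10 in KO and 11.78 ± 0.01 in WT heads (SD, n = 3 each), a difference of −0.23 (SE 0.05), or 0.86 times. Catalase is abundant in red blood cells, and markers of erythroid cells, 6 of 8 tested, were lower too: their mean log2 signal ran from 10.95 to 11.07 in WT and from 10.82 to 10.94 in KO heads. Their part in the Cat difference was not tested.

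The other genes of this stretch, Cstf3, Tcp11l1 and Qser1, were all higher in KO heads. Cstf3, which encodes a subunit of the factor that stimulates cleavage of messenger RNA before polyadenylation, read 9.83, 9.93 and 9.95 in WT and 10.04, 10.10 and 10.08 in KO heads. The difference was 0.17 (SE 0.05), the smallest of the 9 genes. Tcp11l1, a relative of the testis gene Tcp11, read 9.62, 9.56 and 9.65 in WT and 9.75, 9.89 and 9.83 in KO heads, 1.16 times as high. The gap between its highest WT and lowest KO head was 0.10.

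Qser1 encodes a chromatin protein known to guard DNA methylation valleys against new methylation. It was read on 2 probe sets. Probe set 10485622 gave 11.22, 11.40 and 11.43 in WT and 11.51, 11.59 and 11.64 in KO heads, a difference of 0.23 (SE 0.06). Probe set 10485607 gave 11.09, 11.25 and 11.30 in WT and 11.35, 11.39 and 11.41 in KO heads, a difference of 0.17. On both, WT 1 was the lowest head and KO 3 the highest, and the groups did not overlap. The probe sets come from the same RNA and are no separate replicates. Cstf3 is annotated on the + strand and Tcp11l1 and Qser1 on the − strand. Tcp11l1 and Qser1 each overlap 1 noncoding gene in RefSeq (Gm6306 and 2310047K21Rik).

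In the second stretch, both genes were higher in KO heads. Knl1 encodes a scaffold of the outer kinetochore, which ties spindle microtubules to the chromosome and recruits checkpoint kinases. It read 10.74, 10.75 and 10.76 in WT and 10.96, 11.05 and 10.97 in KO heads. Both groups were tight, and 0.20 parted them. The means were 10.99 ± 0.05 in KO and 10.75 ± 0.01 in WT heads (SD, n = 3 each), 1.19 times as high.

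Snap23, a SNARE protein gene of membrane fusion at the cell surface, had the largest difference among the 5 genes that were higher. It read 11.66, 11.68 and 11.66 in WT and 11.80, 12.01 and 12.11 in KO heads. The WT heads nearly coincided while the KO heads were spread, KO 1 lying nearest to WT. The difference was 0.31 (SE 0.07), 1.24 times, and ran from 0.24 without KO 3, when that of Knl1 was larger at 0.26, to 0.39 without KO 1.

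In the third stretch, all 3 genes were lower in KO heads. Ttpal, a CRAL-TRIO domain relative of the alpha-tocopherol transfer protein, read 8.84, 8.77 and 9.04 in WT and 8.43, 8.37 and 8.25 in KO heads. The difference was −0.53 (SE 0.08), 0.69 times, and the gap between the groups, 0.34, was the widest of the 9. Serinc3, next to it, encodes a membrane protein of the family that restricts some enveloped viruses. It read 11.63, 11.54 and 11.56 in WT and 11.31, 11.36 and 11.32 in KO heads, a difference of −0.25 (SE 0.04). Serinc3 overlaps 1 noncoding gene in RefSeq, 0610039K10Rik.

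Wfdc2 encodes a secreted protein with WAP domains that is typical of epithelia. It read 8.04, 7.67 and 8.08 in WT and 7.35, 7.34 and 7.34 in KO heads. WT 2 was the lowest WT head, and the KO heads hardly differed (SD 0.01). The difference of −0.59 (SE 0.10), 0.67 times, was the largest of the 9 as deposited. It was −0.72 without WT 2. That rank passed to Ttpal with 64 added to the linear signals (−0.46 for Ttpal and −0.45 for Wfdc2) and without WT 1 (−0.55 and −0.53). The KO signal lies close to the brightness limit of 7.06, where signals need not follow transcript amounts. Markers of surface ectoderm and epithelium, 9 of 10 tested, had mean log2 signals of 8.62 to 8.81 in WT and 8.66 to 8.72 in KO heads, which overlap. Taken singly, 4 of the 9 had groups that did not overlap, where 12.3% of all genes did. Means were higher in KO heads for 4 and lower for 5, with 1 each way at an unadjusted limma p under 0.05. Their part in the Wfdc2 difference was not tested.

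**Figure D1:**
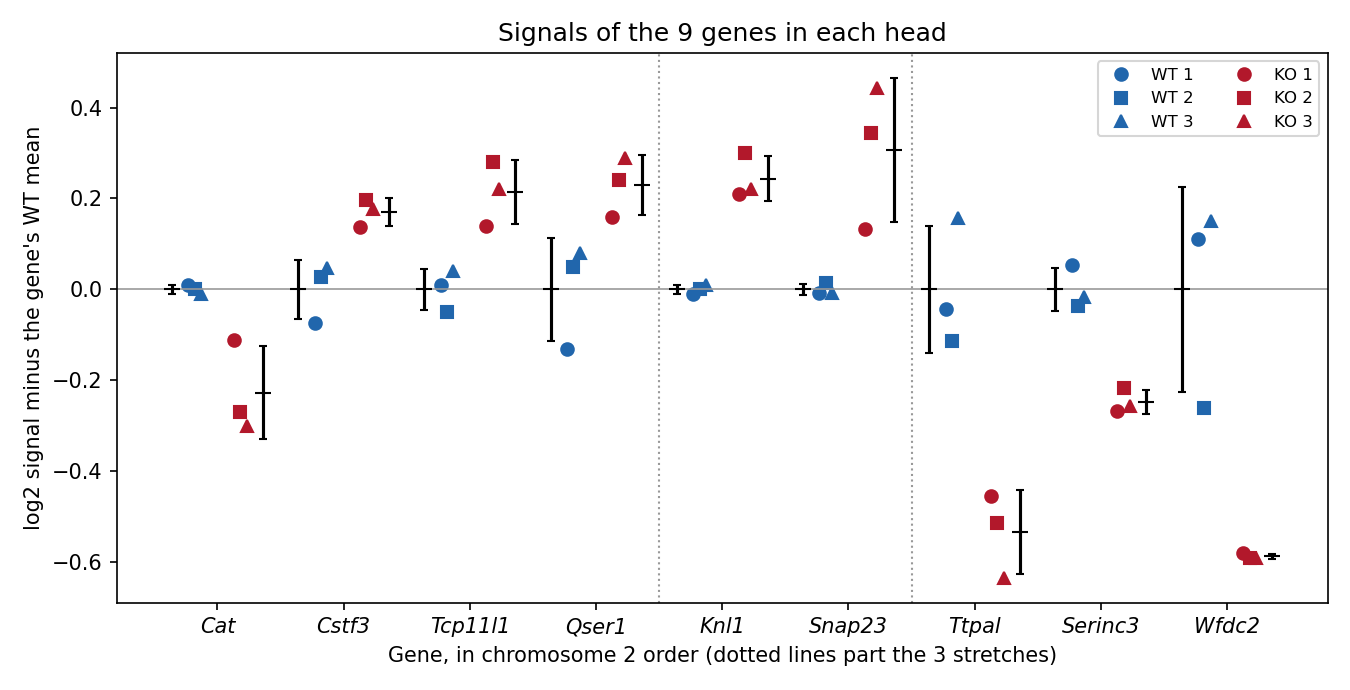
Log2 signal of each of the 9 genes in each head, minus the gene's WT mean, in chromosome 2 order; blue marks are WT and red marks KO heads, black bars are the mean ± SD of 3 heads, and dotted lines part the 3 stretches. Cstf3, Tcp11l1, Qser1, Knl1 and Snap23 are higher and Cat, Ttpal, Serinc3 and Wfdc2 lower in every KO head than in every WT head.

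The KO heads were not equally far from the WT heads. KO 1 was the KO head nearest to WT in 8 of the 9 genes, the exception being Serinc3, where it was KO 2. For Snap23 the difference from the WT mean was 0.13 in KO 1, 0.34 in KO 2 and 0.44 in KO 3. For Cat it was −0.11, −0.27 and −0.30. For Wfdc2 the 3 KO heads were alike, at −0.58, −0.59 and −0.59. Among the other chromosome 2 genes whose groups did not overlap, KO 1 was the nearest in 72 of 149 (48.3%), and on the other chromosomes in 487 of 1294 (37.6%). The 9 genes taken as a score, each centred, scaled and turned so that KO is higher, ran from −1.07 to −0.65 in WT and from 0.44 to 1.05 in KO heads, with KO 1 the lowest of the latter.

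The 9 genes are a choice from a longer list. On chromosome 2, 149 other tested genes also had groups that did not overlap, and for 28 of them the gap between the groups was wider than the 0.07 of Qser1, the narrowest of the 9. For 59 of them the difference was larger in size than that of Cstf3. The widest gap among them was 0.23, for 4930412O13Rik, against 0.34 for Ttpal. Ordered by the same fit, Ttpal, Serinc3, Wfdc2 and Knl1 were the first 4 genes of the chromosome, and Cstf3 was at place 33.

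Chromosome 2 had more genes of this kind than any other chromosome with 100 or more tested genes. The groups did not overlap for 158 of its 939 tested genes (16.8%), 60 higher and 98 lower, against 11.9% of 10838 genes elsewhere. Without the 9 genes it was 149 of 930 (16.0%), 55 higher and 94 lower. The other chromosomes ran from 9.15% (chromosome 18) to 15% (chromosome 16). For an unadjusted limma p under 0.01, the share was 4.37% on chromosome 2, or 3.44% without the 9 genes, against 0.704% to 2.28% on the others and 1.73% over all genes. Chromosome 2 drew attention in this same comparison, so these shares describe it and carry no test.

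**Figure D2:**
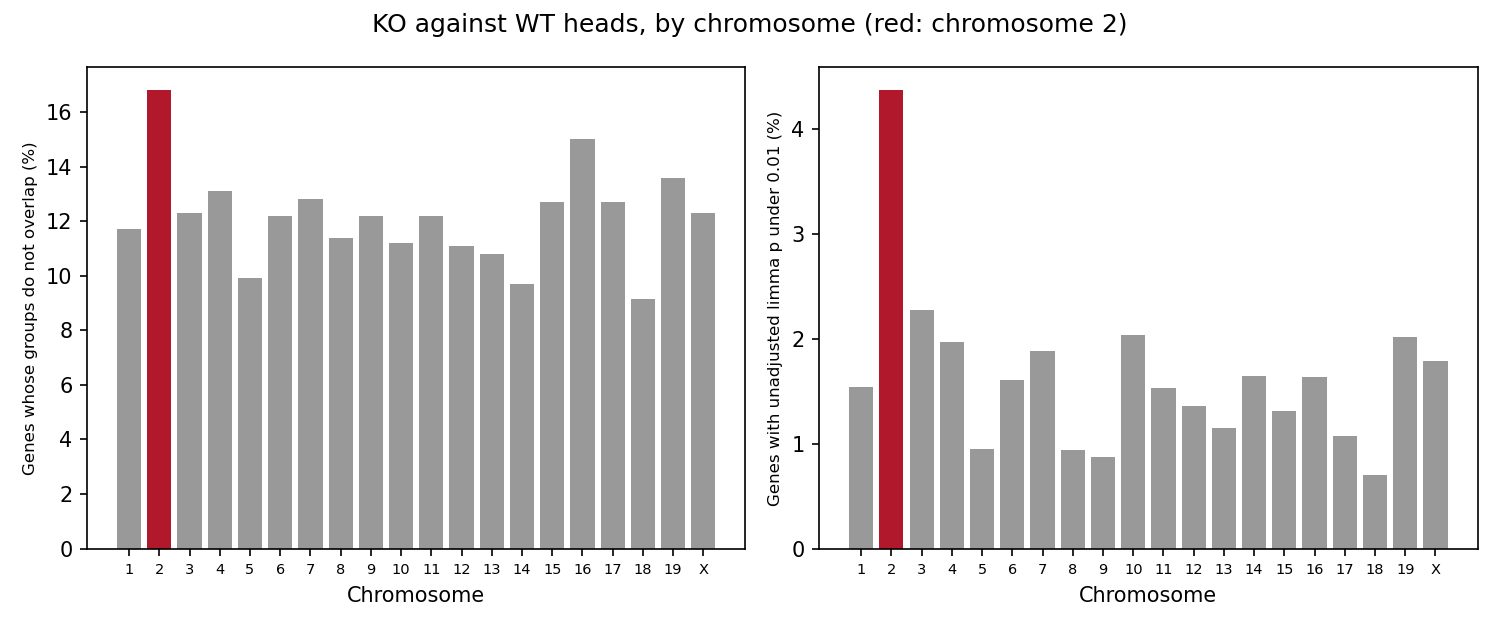
Share of tested genes on each chromosome whose KO and WT heads did not overlap (left) and with an unadjusted limma p under 0.01 (right), in percent of the chromosome's tested genes; chromosome 2 is red. Chromosome 2 has the tallest bar in both, 16.8% and 4.37%.

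With the values as deposited, these genes were not spread evenly along the chromosome, and they did not peak at Tasp1. In blocks of 50 consecutive tested genes, the highest share was in the block from Rmdn3 to Shf, which holds Snap23: 18 of 50 genes (36.0%), 8 higher and 10 lower. The next was the block from Fitm2 to Slc9a8, with Ttpal, Serinc3 and Wfdc2: 13 of 50 (26.0%), 5 higher and 8 lower. With the 9 genes left out, these blocks still had 17 of 49 (34.7%) and 10 of 47 (21.3%). The block of Tasp1, from Cpxm1 to Flrt3, had 9 of 50 (18.0%), 3 higher and 6 lower. The block of Cstf3, Tcp11l1, Qser1 and Knl1 had 9 of 50, which fell to 5 of 46 (10.9%) without those 4. The remaining blocks had 8% to 20%. With blocks of 25 genes, the highest share was 40%, in the block from Rmdn3 to Haus2. The blocks were not counted again with each array centred on its median. Under that scaling, the count among genes between the outer members of the 3 stretches fell from 13 to 7.

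**Figure D3:**
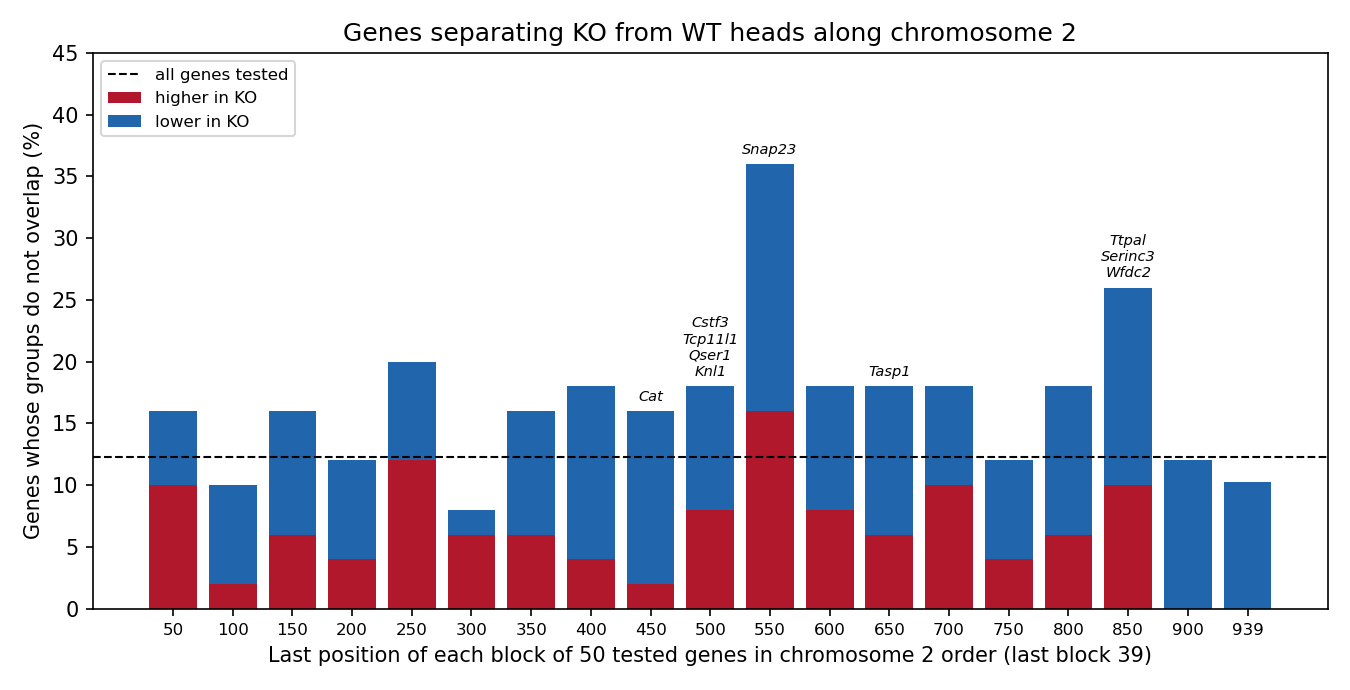
Share of genes whose KO and WT heads did not overlap, in percent, for consecutive blocks of 50 tested genes along chromosome 2, split into higher (red) and lower (blue) in KO; the dashed line is the share over all genes tested, 12.3%, and names mark the blocks of the 9 genes and of Tasp1. The block with Snap23 reaches 36.0% and that with Ttpal, Serinc3 and Wfdc2 26.0%, while the block with Tasp1 stands at 18.0%.

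Neighbours were compared gene by gene. Of the 36 other genes among the 3 nearest tested genes on each side of the 9, 7 (19.4%) had groups that did not overlap, 5 higher and 2 lower, against 12.3% over all genes. This count depends on the scaling: it was 3 when each array was centred on its median, where 12.5% of genes on other chromosomes had such groups. None of the 36 passed adjustment over all genes (limma, smallest adjusted p = 0.273), and 6 had an unadjusted p under 0.05, where 7.13% of all genes did. An unadjusted limma p under 0.01 was found for 5, where 1.73% of all genes had one. These were 0 around the first stretch, 3 around the second and 2 around the third. The median difference of the 36 was −0.011.

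Around the first stretch, 0 of 12 neighbours had groups that did not overlap. With 12.3% over all genes, a count of 0 among 12 does not set them apart. Beside Cat, Apip and Abtb2 differed by 0.02 and −0.06, and beside the trio of Cstf3, Tcp11l1 and Qser1, Gm13884 and the translation factor gene Eif3m differed by −0.03 and −0.12. The eye and forebrain regulator Pax6, also a neighbour of Qser1, differed by −0.06. The trio thus had overlapping neighbours on both sides. Between Cat and Qser1, 1 of 9 other genes (11.1%) had groups that did not overlap, near the share over all genes. It was the blood and endothelial regulator Lmo2, at −0.07.

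Around the second stretch, 5 of 12 neighbours (41.7%) had groups that did not overlap, against 12.3% over all genes, and neighbours went both ways. Next to Knl1, Rmdn3, a gene of contacts between mitochondria and endoplasmic reticulum, was at 9.01, 9.01 and 8.91 in WT and 9.07, 9.19 and 9.22 in KO heads, a difference of 0.18 (limma, adjusted p = 0.629). Gchfr, a regulator of tetrahydrobiopterin synthesis, differed by 0.16. Its mean was 6.99 in WT, below the brightness limit of 7.06, and 7.15 in KO heads, so it passed the filter only through the KO heads. It is nevertheless counted among these 5 neighbours and among the genes between Knl1 and Snap23 below. On the other side of Knl1, Rpusd2 differed by 0.01.

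Before Snap23, Zfp106, a gene of an RNA-binding zinc finger protein, was higher by 0.21 and Tmem87a, a gene of a Golgi membrane protein, by 0.18. Vps39, which encodes a subunit of the HOPS complex that tethers lysosomes, was lower: 9.90, 9.82 and 9.70 in WT against 9.62, 9.42 and 9.40 in KO heads, a difference of −0.33 (limma, adjusted p = 0.273). Behind Snap23, Lrrc57, Haus2 and Stard9 differed by −0.11, 0.03 and 0.03 and their groups overlapped.

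Between Knl1 and Snap23, 9 of 22 other genes (40.9%) had groups that did not overlap, 5 higher and 4 lower, with a median difference of −0.011. Those not yet named were Rtf1, a gene of the PAF1 transcription elongation complex (0.24), Chp1, a calcineurin-like calcium-binding protein gene (−0.25), Zfyve19 (−0.21) and Vps18, another HOPS subunit gene (−0.22). KO 1 was the nearest KO head to WT in 7 of these 9. Over the genes between the outer members of all 3 stretches, 13 of 42 had groups that did not overlap (31.0%), and with median centring 7 did. Lmo2, Rtf1, Zfyve19, Vps18 and Tomm34 (0.05, in the third stretch) were named after their values were seen.

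Around the third stretch, 2 of 12 neighbours (16.7%) had groups that did not overlap, near the 12.3% over all genes. Pkig, an inhibitor of protein kinase A that directly follows Serinc3, was lower: 8.61, 8.78 and 9.15 in WT against 8.31, 8.57 and 8.46 in KO heads, a difference of −0.40 (limma, adjusted p = 0.549). The 3 consecutive genes Ttpal, Serinc3 and Pkig were thus all lower. Ada, which follows, differed by −0.14, and Fitm2, on the other side of Ttpal, by −0.10. Directly before Wfdc2, Pigt, a subunit gene of the GPI anchor transamidase, was higher by 0.15, and directly after it Wfdc11 differed by −0.02.

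Around Tasp1, 0 of the 6 nearest tested genes had groups that did not overlap, where 12.3% of all genes did, so that a count of 0 among 6 does not set them apart. Esf1, Ndufaf5 and Macrod2 on one side differed by 0.09, 0.17 and 0.13, and Btbd3, the Notch ligand gene Jag1 and Slx4ip on the other by 0.04, 0.00 and 0.04. Of these, 0 had an unadjusted limma p under 0.05, and the smallest adjusted p was 0.777.

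**Figure D4:**
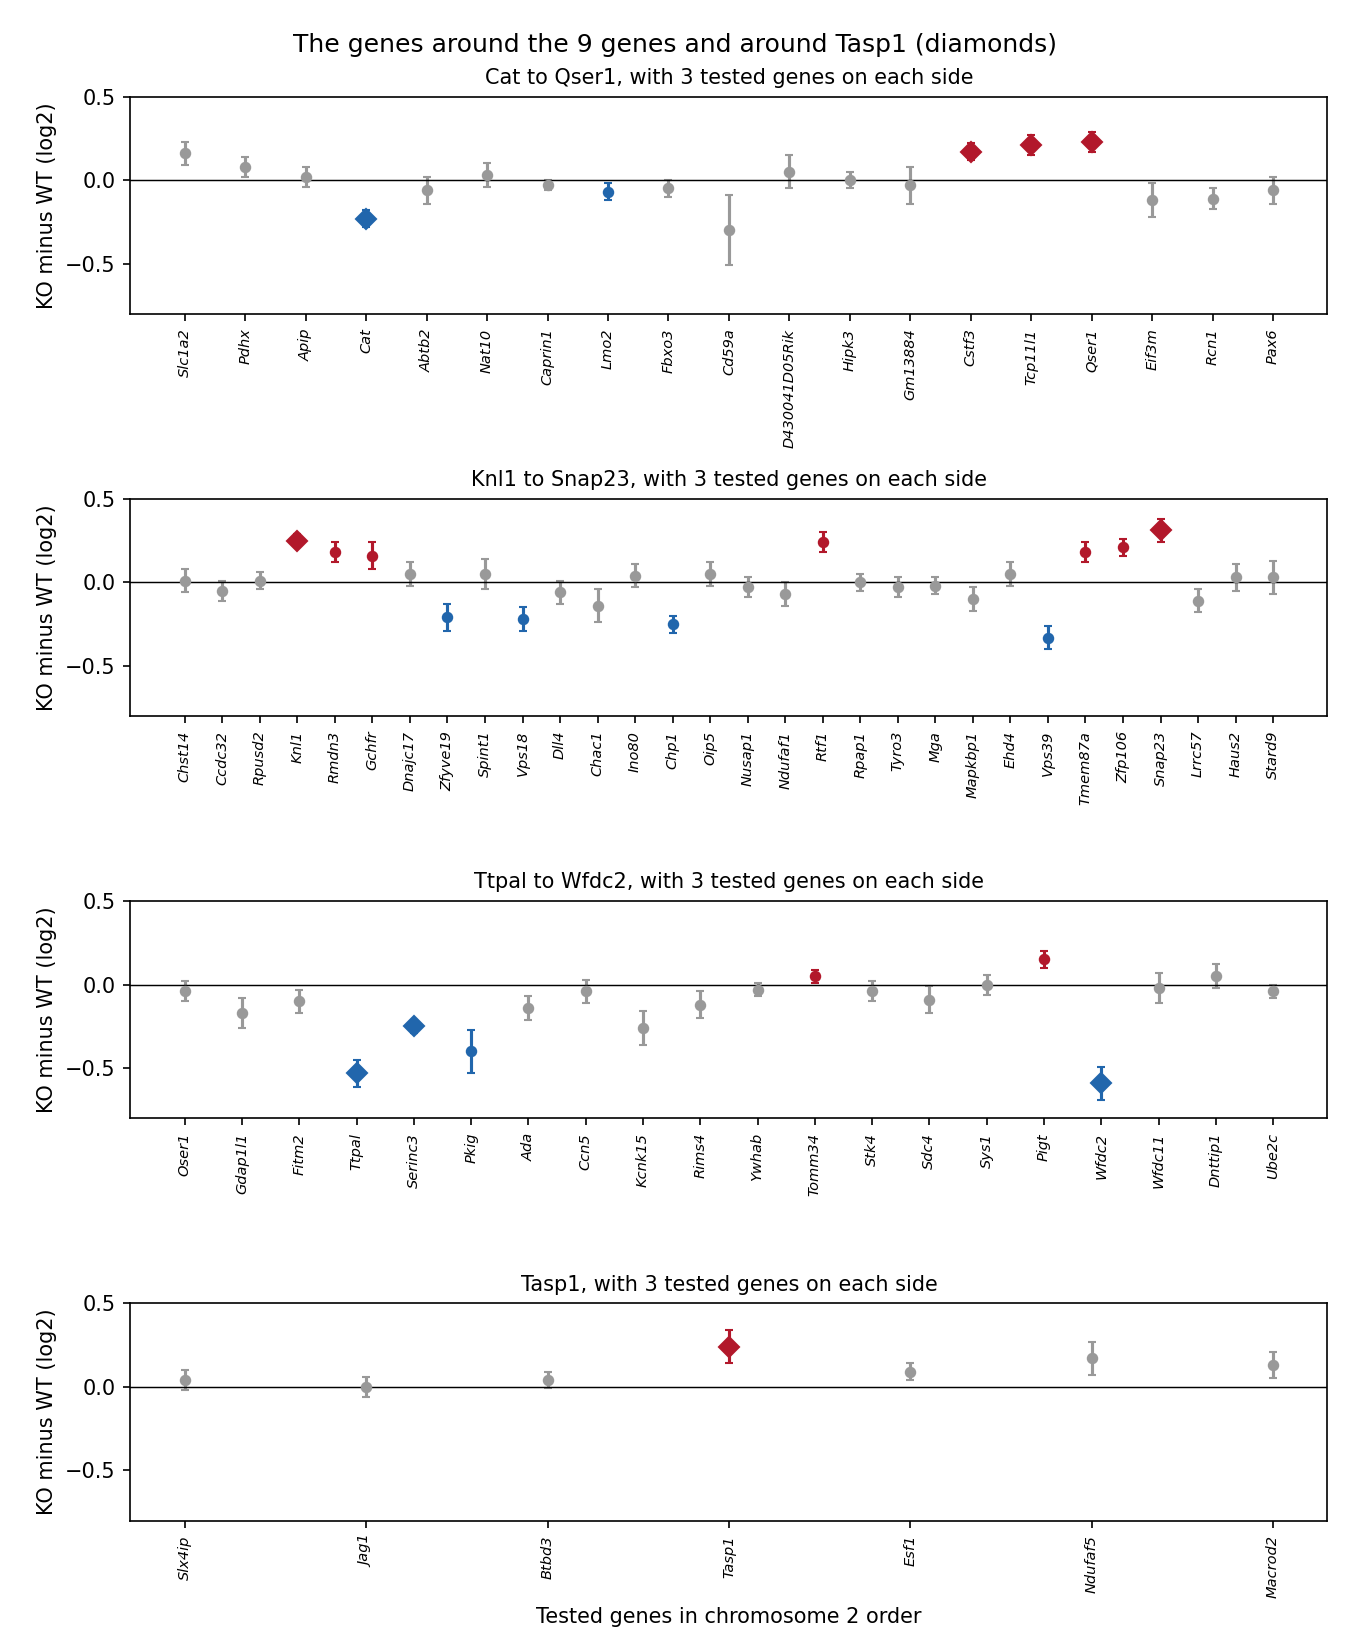
Difference between KO and WT means (log2, bars are the limma SE) for the tested genes in each of the 3 stretches and around Tasp1, with 3 tested genes on each side, in chromosome order; diamonds are the 9 genes and Tasp1, red and blue mark genes whose heads did not overlap, higher or lower in KO, and grey those that overlapped. Between Knl1 and Snap23 there are 5 red and 4 blue genes among 22, and the 6 genes around Tasp1 are grey.

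Among the 10 other chromosome 2 genes with the smallest unadjusted p, 6 lay in the run of genes from Bmf (position 489) to B2m (position 549), which holds Knl1 and Snap23. Both ends of this run are themselves among the 10 and were set after the values were seen. The count of 6 therefore describes where these genes lie and is no measure of clustering. The 6 were Zfp106, Vps39 and Chp1, named above, the cell death gene Bmf (−0.45), the tRNA modification gene Lcmt2 (−0.27) and B2m. B2m, which encodes the light chain of MHC class I molecules, read 10.98 to 11.16 in WT and 10.75 to 10.81 in KO heads, a difference of −0.26. The other 4 lay at position 243 or before, far from the 9 genes: the forebrain selector gene Lhx2 (−0.33), 4930412O13Rik (0.38), the adenylate kinase gene Ak1 (0.36) and the phosphohistidine phosphatase gene Phpt1 (−0.20). Of the 10, 3 were higher and 7 lower, and none passed adjustment over all genes (limma, adjusted p 0.228 to 0.283).

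The partners and relatives of the 9 genes, taken from lists chosen by function, did not pass adjustment over all genes either. Over 85 tested genes of these lists, the 9 genes left out, 10 (11.8%) had groups that did not overlap, against 12.3% of all genes tested. An unadjusted limma p under 0.05 was found for 6 of the 85, where 7.13% of all genes had one. These counts are near the shares over all genes. The median difference was −0.02, where the median over all genes tested was −0.0092.

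Of the kinetochore and spindle checkpoint partners of Knl1, 15 of 15 were tested, 3 higher and 12 lower, with a median of −0.03. The lower ones included Pmf1, of the MIS12 complex (−0.21), and Spc24, of the NDC80 complex (−0.20), both with an unadjusted p under 0.05 (limma, adjusted p = 0.675 each). Of the SNARE proteins and their partners, 15 of 18 were tested, with a median of −0.03. Snap25, the neuronal relative of Snap23 and also on chromosome 2, differed by −0.16 and Stx3 by −0.11.

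In the SERINC family, 4 of 4 relatives were tested, and Serinc4, the one on chromosome 2, went the other way from Serinc3. It read 7.13, 6.93 and 7.10 in WT and 7.22, 7.35 and 7.33 in KO heads, a difference of 0.25 (limma, adjusted p = 0.549). The WT mean of Serinc4, 7.05, lay just below the brightness limit of 7.06, so it passed the filter only through the KO heads. Serinc2 differed by −0.14. Of the WAP family, 3 of 23 were bright enough to be tested, with Wfdc1 at −0.21 and Wfikkn1 at 0.10. Of the CRAL-TRIO family 4 of 10 were tested, with Mospd2 at 0.13 and Sec14l2 at −0.07.

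Of the genes that remove hydrogen peroxide and superoxide, 17 of 20 were tested besides Cat, 6 higher and 11 lower, with a median of −0.03. The glutathione peroxidase gene Gpx4 differed by −0.14 and the mitochondrial thioredoxin gene Txn2 by −0.07. Of the machinery of cleavage and polyadenylation, 20 of 20 were tested besides Cstf3, 10 higher and 10 lower. Cpsf6 was at 0.13 (limma, unadjusted p = 0.0186, adjusted p = 0.629) and Cpsf2 at −0.11. Of the enzymes that write or remove DNA methylation, 7 of 9 were tested besides Qser1. Tet1, which removes methylation together with other TET enzymes, was at 0.14 (limma, adjusted p = 0.65) and Tet3 at −0.10. Tcp11 and Tcp11l2, the relatives of Tcp11l1, were not tested.

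The genes whose pattern over the 6 heads was most like the score of the 9 genes lay on other chromosomes. Likeness was the Pearson correlation with that score over 6 heads, given as a description because the score itself separates the groups. Gmnc, a regulator of multiciliated cells on chromosome 16, had r = −0.996: it read 7.68, 7.46 and 7.58 in WT and 7.02, 6.86 and 6.82 in KO heads. Its KO mean, 6.90, lay below the brightness limit of 7.06, so it passed the filter only through the WT heads. Nhs, on chromosome X, had r = 0.992 with a difference of only 0.09. Tspan15 (chromosome 10, r = −0.991), the citrate carrier gene Slc25a1 (chromosome 16, r = −0.990) and Map4, a gene of a microtubule-associated protein (chromosome 9, r = −0.986), differed by −0.16, −0.07 and −0.22.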

How the data were processed

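Total RNA, 100 ng per head, was labelled with biotin for Affymetrix arrays, per the labels' protocols. The deposited table holds log2 signals of 35556 probe sets on 6 arrays, from 2.73 to 14.4, with array medians of 7.35 to 7.45. Expression Console and MAS5 appear in the submitters' processing notes, with no role stated; which background correction, summary method and annotation build the authors used was not given in those sources. The values are not linear MAS5 signals and were used as deposited, with no pseudocount. The number of arrays limits the precision.

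Genes came from the platform annotation: 21789 probe sets have 1 symbol, 1621 several. Of the former, 21698 matched RefSeq (GRCm38.p6), used for chromosome and gene order. The lowest 40% by mean over all arrays (below 7.06) were left out, and the probe set with the highest mean stood for a gene. KO and WT were compared with limma 3.58.1 (R 4.3.3; lmFit, eBayes with a variance trend, two-sided, Benjamini-Hochberg over 11802 genes, threshold 0.05); 0 genes passed, 841 (7.13%) had an unadjusted p under 0.05. The procedure was tested on simulated data.

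Groups do not overlap where every KO head lies above, or below, every WT head. Named are the 9 genes, Tasp1, the 3 nearest tested genes on each side of each, the 10 other chromosome 2 genes with the smallest p, up to 2 genes per list, and the 5 genes most like the 9; others are marked as chosen after their values were seen. The 9 genes and the lists were chosen with earlier results of these data known. Alternatives covered normalization, an added constant, the filter, probe sets, the variance model, the replicate block, Xist signal and each head left out. Figures were drawn with matplotlib 3.10.9.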

Additional observations from a re-analysis of the deposited data

How the results depend on the processing

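All 9 genes kept their direction, and groups that did not overlap, under every alternative that tested them (Wfdc2 was not tested with the lowest 60% left out). Only quantile normalization and median centring could have made the groups overlap. Under the other alternatives, genes chosen because their heads separate must stay separated, so that outcome was fixed in advance. Over the alternatives that kept all heads, differences ran from −0.25 to −0.21 for Cat, 0.28 to 0.32 for Snap23, −0.59 to −0.46 for Ttpal and −0.72 to −0.45 for Wfdc2. With a head left out they ran from −0.28 to −0.19 for Cat, 0.13 to 0.19 for Cstf3, 0.18 to 0.25 for Tcp11l1, 0.16 to 0.27 for Qser1, 0.22 to 0.26 for Knl1, 0.24 to 0.39 for Snap23, −0.59 to −0.45 for Ttpal, −0.26 to −0.22 for Serinc3 and −0.72 to −0.51 for Wfdc2, and from 0.12 (without WT 1) to 0.31 for Tasp1.

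Chromosome 2 had the higher share of genes whose groups did not overlap under each alternative. Without the filter it was 13.3% against 10.8% elsewhere (1965 genes elsewhere), and with the lowest 60% left out 16.8% against 11.6% (105 and 828 genes; 68 chromosome 2 genes at an unadjusted p under 0.05), since other numbers of genes are then tested. With a head left out, fewer heads must separate. The count on chromosome 2 was then 210 (22.4%, without KO 2) to 283 (30.1%, without WT 3). Elsewhere it was 1854 (17.1%, without KO 2) to 2894 (26.7%, without KO 3). An unadjusted limma p under 0.05 was found for 63 (without KO 2) to 120 (without WT 3) chromosome 2 genes. At a p under 0.01, the shares on chromosome 2 and elsewhere were 1.92% and 0.72% without KO 2, and 4.05% and 1.91% without WT 3. With the lowest 60% left out they were 4.63% and 1.45%. Among neighbours the count was 3 with median centring, where the share elsewhere was 12.5%. With 5 genes on each side it was 12 of 59 (20.3%), against 12.3% over all genes. With a head left out it was 10 (without WT 1) to 16 (without WT 2). The share elsewhere was then 17.1% (without KO 2) to 26.7% (without KO 3). Between the outer genes of the stretches the count was 7 with median centring and 15 to 19 with a head left out. It was also 7 with the lowest 60% left out, where the third stretch drops out with Wfdc2. The cause of the change with median centring was not tested.

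Genes past adjusted p 0.05 in limma numbered 1 with quantile normalization, 2 without the filter, 1 with the lowest 60% left out and 0 to 6 (without KO 1) with a head left out. List genes with an unadjusted p under 0.05 numbered 10 without the filter and 3 (without WT 1 or KO 3) to 7 with a head left out. Without the filter, dim genes are tested too, so the 10 need not be out of the 85 of the main fit. Shares over all genes were not set beside these counts, and no change is read from them.

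Heads with the same replicate number did not deviate together (correlations of deviations −0.169, −0.115 and −0.206). The correlation was 0.209 for KO 1 with WT 2, 0.280 for KO 2 with WT 3 and 0.266 for KO 3 with WT 1. Deviations from a mean of 3 heads depend on each other, so these values cannot show whether any heads shared a litter or batch. With the replicate block, 0 genes passed and 90 chromosome 2 genes had an unadjusted p under 0.05, against 104 without it. At an unadjusted limma p under 0.01, the share with the block was 3.73% on chromosome 2 and 1.23% elsewhere. Without the block it was 4.37% and 1.5%.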
